A study of Mus musculus with 4 samples.

Results

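The genes described here are 32 genes of protein folding and secretion in the endoplasmic reticulum (ER), out of 25149 genes in the deposited tables. The rule that lists them names genes by function and uses no measured value, but they were chosen with earlier results of these data known. They fall into 15 chaperones and folding enzymes, 3 genes of ER-associated degradation (ERAD, the route by which misfolded proteins leave the ER and are destroyed), 9 genes of the translocon and signal peptidase, and 5 regulators of the unfolded protein response. Their counts were followed in liver cells of mice given carbon tetrachloride (CCl4), which hepatocytes turn into a toxic radical and which scars the liver when given repeatedly, and of mice given its vehicle, corn oil.

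All 4 mice were wild-type males of 8 to 10 weeks, injected into the peritoneum 2 times a week for 5 weeks and killed 48 hours after the last dose. Each dose was 10 µl for every g of the animal. For the 2 CCl4 mice it was 1 part of CCl4 to 9 parts of corn oil, and for the 2 corn oil mice the oil alone, so that all 4 were given corn oil. The sources used here name no strain. Livers were digested with pronase and collagenase, hepatocytes were spun out, and the remaining cells were sequenced one by one, with 1 library and 1 mouse per sample. The libraries held 5948 to 7663 cells, 45408857 to 55529871 UMIs (unique molecules counted) and medians of 4493 to 6861 UMIs per cell. Each pair of libraries shared 48 to 74 cell barcodes. Of 27091 cells, 25861 passed the filters, and 20946 fell in exactly 1 of 5 gates, each gate being a set of cells picked by UMIs of a few marker genes.

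The gates held 2773 to 5346 endothelial, 144 to 458 stellate, 216 to 228 Kupffer, 23 to 1348 monocyte and 56 to 123 plasmacytoid dendritic (pDC) cells per mouse. None of the gating genes is a member of the 32. Every marker of each gate's own list (6 to 8 genes) was detected in all 4 mice. These lists hold the gating genes, and all 8 endothelial markers were detected in the stellate gate of all 4 mice too. Detection therefore does not test the labels. The label of the monocyte gate did not hold evenly. Its corn oil part was 43 and 23 cells, with Ly6c2, a marker of classical monocytes, at 53.3 and 42.6 CPM (UMIs scaled to a common total) against 591 and 827 in the CCl4 mice. Kupffer markers made up 0.174% and 0.249% of its UMIs in the corn oil mice against 0.0111% and 0.0031% in the CCl4 mice. Conventional dendritic markers were at 0.0237% and 0.0460% against 0.00207% and 0.00122%, and stellate markers at 0.255% and 0.0631% against 0.0458% and 0.0414%. The cholangiocyte list was at 0.172% and 0.222% against 0.0616% and 0.0608%. Only 1 of its 4 genes was detected in each corn oil mouse, so this share does not mark cholangiocytes. The corn oil cells of this gate are therefore called gated cells, not monocytes.

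Secreted and membrane proteins enter the ER through the Sec61 channel, lose their signal peptide to the signal peptidase and are folded there by Hsp70 and Hsp90 family chaperones, lectin chaperones and protein disulfide isomerases. When unfolded proteins build up, 3 sensors act through the transcription factors XBP1, ATF6 and ATF4 and raise the genes of these machines, a programme called the unfolded protein response. Endothelial, stellate and Kupffer cells all secrete or display much protein, and plasmacytoid dendritic cells, which release interferon, keep a well-developed ER.

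The best known binding sequences of this programme are shown first, because several of the 32 genes hold one near their start. Promoter sequences of 250 bases before to 50 bases after the transcription start were taken from RefSeq (GRCm38.p6) and held 26 of the 32 genes. On both strands, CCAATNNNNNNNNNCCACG (the ER stress response element, ERSE, bound by ATF6 with NF-Y) was in 7 of the 26, namely Hspa5, Hsp90b1, Calr, Canx, Pdia6, Dnajc3 and Creld2, and in 0.119% of all 32851 promoters. ATTGGNCCACG (ERSE-II) was in Herpud1 and Dnajb11, and in 0.0365% of promoters. TGACGTGG, an element known to bind XBP1, was in 0 of the 26 and 0.676% of promoters. TGATGNAAT, an element known to bind ATF4 with its partners, was in 0 of the 26 and 0.965% of promoters. ERSE and ERSE-II share CCACG at their 3′ end.

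Sequences around 6 of these matches are printed 5′ to 3′ on the strand of the gene, with the match in capitals and positions counted from the start, -1 being the base before it. They cover 4 genes called in at least 1 gate and 2 genes, Canx and Herpud1, called in none. A match that reads CGTGG first lies on the opposite strand. The Hspa5 window, at -65 to -47, is chr2:34772020-34772048 (plus strand) and lies in an exon of another Hspa5 transcript of GENCODE vM21, so only 29 bases are shown. The other windows overlap no annotated exon and lie in the 5′ flank. They are Calr at -162 to -144 (chr8:84847045-84847123, minus), Pdia6 at -98 to -80 (chr12:17266461-17266539, plus), Creld2 at -126 to -108 (chr15:88819490-88819568, plus), Canx at -145 to -127 (chr11:50325770-50325848, minus) and Herpud1 at -52 to -42 (chr8:94386347-94386417, plus).
Hspa5: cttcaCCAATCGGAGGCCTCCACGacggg
Calr: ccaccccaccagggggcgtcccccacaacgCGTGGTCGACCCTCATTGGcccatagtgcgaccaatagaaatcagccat
Pdia6: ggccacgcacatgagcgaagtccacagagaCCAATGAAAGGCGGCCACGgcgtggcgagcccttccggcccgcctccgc
Creld2: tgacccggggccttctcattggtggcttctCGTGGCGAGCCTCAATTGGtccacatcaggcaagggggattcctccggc
Canx: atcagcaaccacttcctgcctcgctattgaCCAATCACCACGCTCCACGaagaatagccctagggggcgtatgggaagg
Herpud1: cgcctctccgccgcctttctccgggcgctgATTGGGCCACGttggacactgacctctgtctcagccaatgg

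In the CCl4 mice, some of the chaperones, folding enzymes and translocon genes were called higher in endothelial, stellate and Kupffer cells. No member was called in the monocyte or pDC gates. The 32 genes together made up 0.923% and 0.742% of endothelial UMIs in the corn oil mice against 1.74% and 1.33% in the CCl4 mice. In stellate cells the shares were 1.03% and 0.962% against 1.56% and 1.39%, and in Kupffer cells 0.798% and 0.601% against 1.20% and 1.15%. In these 3 gates both CCl4 mice lay above both corn oil mice. The shares overlapped in the monocyte gate, at 1.12% and 0.990% against 1.11% and 0.802%, as they did in pDC, at 1.26% and 0.993% against 1.29% and 1.09%. Most of the added share came from the chaperones, which in endothelial cells went from 0.687% and 0.560% to 1.43% and 1.10%. The translocon group was at 0.106% and 0.0944% against 0.152% and 0.131% in the same cells, and the 3 ERAD genes overlapped at 0.0723% and 0.0482% against 0.0862% and 0.0432%. These shares are descriptions without a test, and abundant genes weigh most in them. Hspa5, among the most abundant members in endothelial cells, was not called there and differed between the mice of each treatment.

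**Figure D1:**
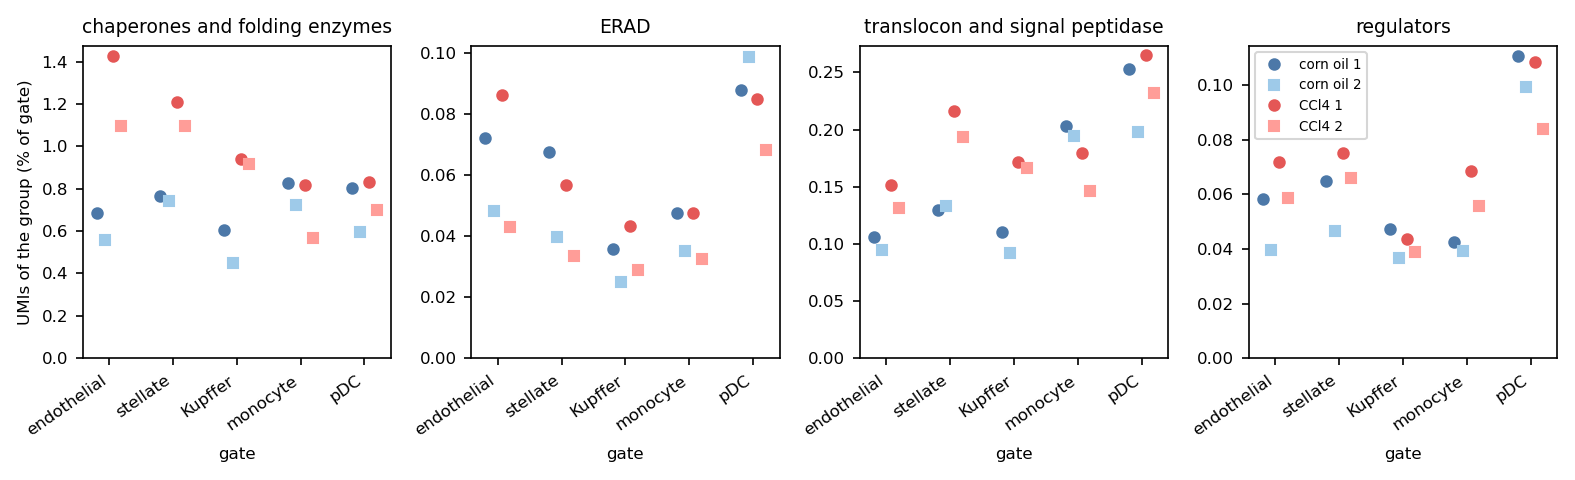
Percent of a gate's UMIs (y axes, from 0) that came from each of the 4 gene groups, in 5 gates (x axis), with 1 point per mouse (circles, replicate 1; squares, replicate 2; blue, corn oil; red, CCl4). The chaperone and translocon points of the CCl4 mice sit above the corn oil points in the endothelial, stellate and Kupffer gates, while the ERAD points overlap between treatments in every gate but pDC, where the CCl4 points (0.0851% and 0.0682%) sit below corn oil (0.0878% and 0.0988%).

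The difference was seen in the middle of the cell distribution too. With each cell thinned to 1500 UMIs, so that depth was equal, the median endothelial cell had 0.867% and 0.733% of its UMIs from the 32 genes in the corn oil mice and 1.73% and 1.27% in the CCl4 mice. The lower quartiles of the CCl4 mice, 1.27% and 1.00%, lay above both corn oil medians. In Kupffer cells the medians were 0.8% and 0.600% against 1.13% and 1.07%, and the lower quartiles of the CCl4 mice, 0.867% and 0.8%, reached or passed the corn oil medians. In stellate cells the medians were 1.00% and 0.8% against 1.47% and 1.27%, and the CCl4 lower quartiles were 1.13% and 1.00%. No cell of the 5 gates was too shallow for this depth. These quartiles describe cells of 4 mice, and cells are not replicates.

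Counts per gate were compared between treatments as CPM after TMM scaling, which corrects the totals for composition, with 2 mice against 2. In endothelial cells 8 of 32 members rose in the CCl4 mice and none fell, where 3% of all 13337 genes tested rose. The 8 were Hyou1, Pdia4, Pdia6, Calr, Hsp90b1, P4hb, Sec61a1 and Sec61b. In stellate cells 10 of 31 rose and none fell, where 5.55% of 8959 genes rose. In Kupffer cells 18 of 31 rose and none fell, where 7.43% of 9917 genes rose. The median log2 fold change over the tested members was 0.62 in endothelial, 0.49 in stellate and 0.67 in Kupffer cells, where the median over all genes was 0.00, 0.00 and -0.01. Hyou1, Pdia6, Sec61a1 and Sec61b were called in all 3 gates. Trib3 passed the filter on low counts in endothelial cells only, and Ddit3 failed it in pDC.

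**Figure D2:**
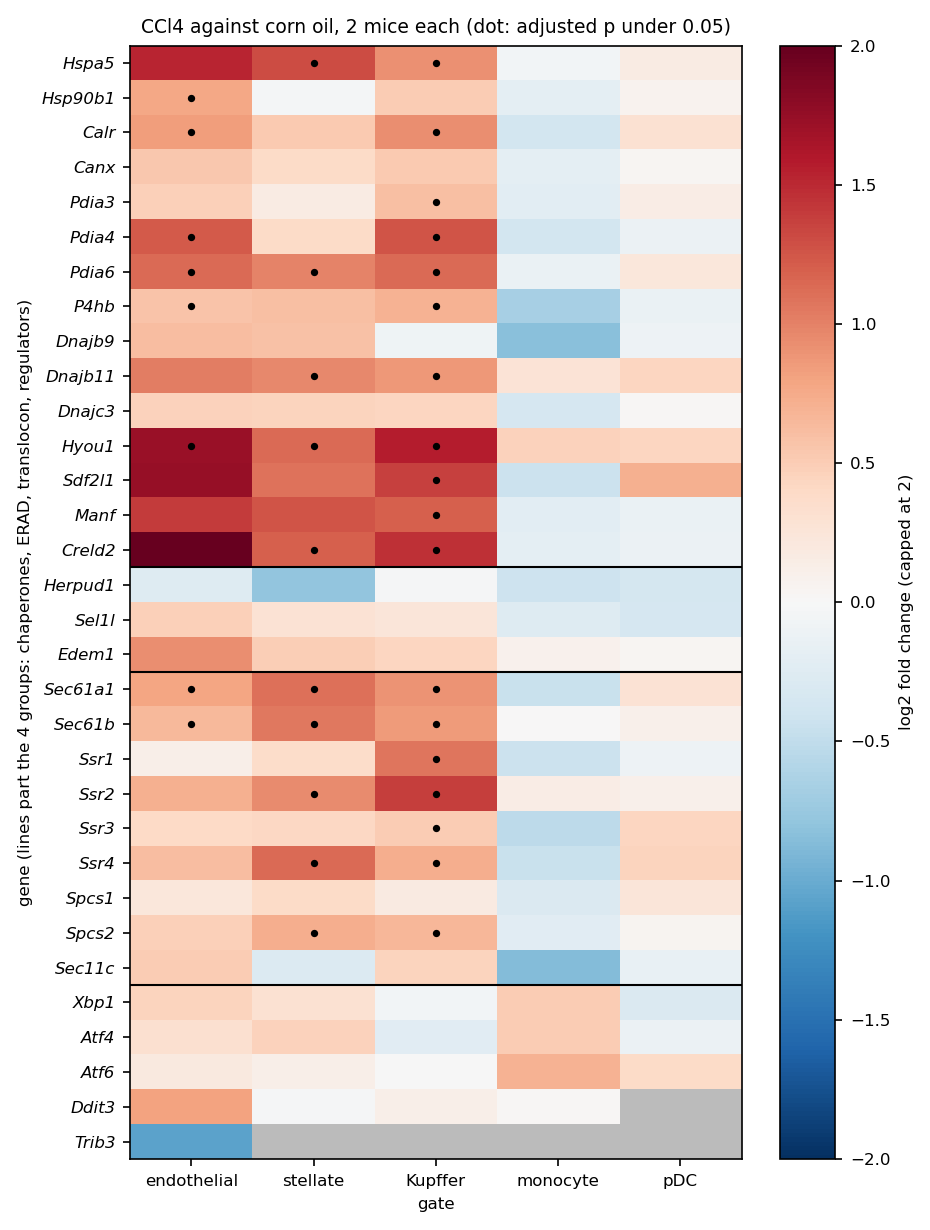
Log2 fold change of CCl4 over corn oil (color, capped at 2) for the 32 genes (rows) in 5 gates (columns), with a dot where the adjusted p was under 0.05 and grey where a gene failed the filter on low counts. Dots stand in the chaperone and translocon rows of the endothelial, stellate and Kupffer columns (8, 10 and 18 genes), and there are 0 in the ERAD and regulator rows or in the monocyte and pDC columns.

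Hyou1, a large Hsp70-type chaperone that serves as exchange factor for BiP, was called in all 3 of these gates. Its endothelial CPM were 63.2 and 51.5 in the corn oil mice and 236 and 143 in the CCl4 mice, a log2 fold change of 1.72 ± 0.25 (SE, edgeR quasi-likelihood, adjusted p = 0.0155). In Kupffer cells it went from 43.8 and 40.8 to 138 and 113 (1.57 ± 0.18, adjusted p = 0.00173), and in stellate cells from 87.2 and 83.2 to 215 and 158 (1.14 ± 0.22, adjusted p = 0.0113). The CCl4 mice lay well above the corn oil mice in each of these gates. In endothelial and Kupffer cells the call held in all 15 alternatives.

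Hspa5 encodes BiP, the Hsp70 chaperone of the ER lumen that also holds the sensors of the unfolded protein response inactive. In stellate cells it was at 1385 and 1026 CPM in the corn oil mice and 3442 and 2518 in the CCl4 mice (log2 fold change 1.31 ± 0.24, edgeR adjusted p = 0.00852). In Kupffer cells it was at 1384 and 890.1 against 2486 and 1797 (0.91 ± 0.24, edgeR adjusted p = 0.0329). In endothelial cells the fold change was larger, 1.52 ± 0.53, at 1728 and 554 against 4309 and 2236 CPM, yet it was not called (edgeR adjusted p = 0.142). The CCl4 mice were above the corn oil mice there too, but the mice of each treatment differed among themselves by more than in the other gates. Hspa5 of the monocyte gate was at 2057 and 1091 against 1926 and 1126 CPM, and in pDC at 1354 and 1090 against 1426 and 1330, and the mice of both treatments overlapped in both gates.

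**Figure D3:**
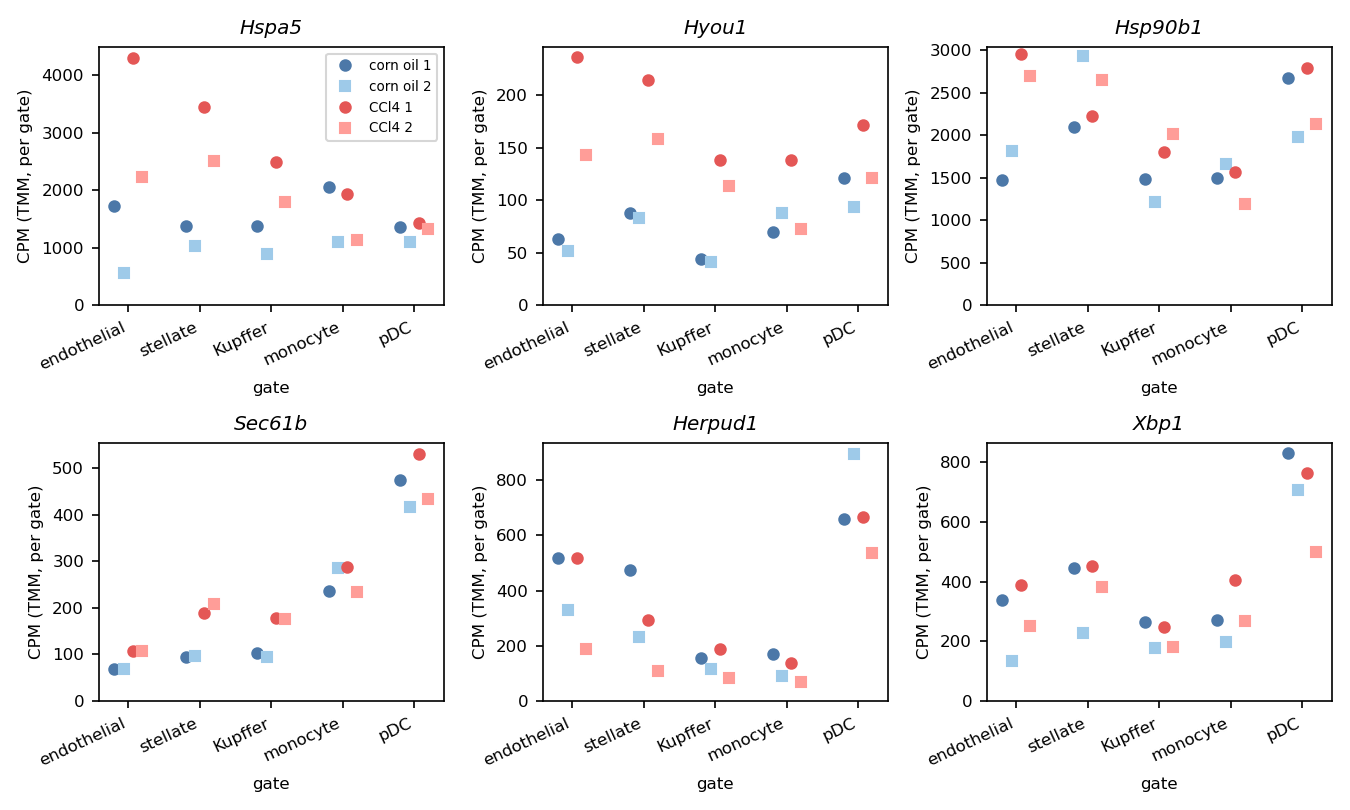
CPM with TMM scaling within each gate (y axes, from 0) of 6 genes in 5 gates (x axis), with 1 point per mouse (circles, replicate 1; squares, replicate 2; blue, corn oil; red, CCl4). Hspa5 and Hyou1 of the CCl4 mice lie above corn oil in the endothelial, stellate and Kupffer gates, Sec61b does so with little spread (69.2 and 68.5 against 108 and 107 in endothelial cells), and Xbp1 and Herpud1 overlap in most gates.

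The protein disulfide isomerases form and rearrange disulfide bonds in the ER. Pdia6 was at 192 and 173 CPM in corn oil and 444 and 359 in CCl4 endothelial cells (log2 fold change 1.14). It was at 180.2 and 212 against 409 and 369 in stellate cells (1.00), and at 164 and 145 against 357 and 325 in Kupffer cells (1.14). The CCl4 mice lay above the corn oil mice in each of these gates. Pdia4 was at 121 and 108 against 325 and 208 in endothelial cells (1.22) and at 90.2 and 70.1 against 205 and 181 in Kupffer cells (1.26), and both were called. In stellate cells Pdia4 was at 193 and 190 against 267 and 229.5 and was not called (log2 fold change 0.38, edgeR adjusted p = 0.229). P4hb, the founding member of the family and a subunit of prolyl 4-hydroxylase, rose in endothelial and Kupffer cells (0.57 and 0.70), and Pdia3, the isomerase that works with calnexin and calreticulin, in Kupffer cells (0.59).

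Calr, the soluble lectin chaperone of glycoproteins, rose in endothelial cells from 952 and 927 to 1668 and 1696 CPM (log2 fold change 0.84, edgeR adjusted p = 0.0180). It rose in Kupffer cells from 859 and 719 to 1424 and 1577 (0.93) and was at 1151 and 1056 against 1435 and 1742 in stellate cells without a call (0.52). Canx, its membrane-bound relative, was called in no gate. Its CCl4 mice lay above its corn oil mice in endothelial, stellate and Kupffer cells, and its adjusted p in Kupffer cells was at the threshold of 0.05 without being under it (edgeR). Hsp90b1, the Hsp90 chaperone of the ER, rose in endothelial cells from 1477 and 1819 to 2953 and 2695 CPM (0.78). In stellate cells it overlapped, at 2100 and 2931 against 2233 and 2651, and in Kupffer cells it was at 1483 and 1212 against 1806 and 2013 without a call (0.50).

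Creld2, Sdf2l1, Manf, Dnajb11 and Dnajb9 encode smaller ER proteins and cofactors known as targets of the unfolded protein response. Creld2, a secreted ER resident protein, was at 76.5 and 22.0 CPM against 287 and 112 in endothelial cells (log2 fold change 2.02, not called, edgeR adjusted p = 0.110). It was called in stellate cells, at 81.5 and 69.0 against 213 and 129 (1.19), and in Kupffer cells, at 48.7 and 28.2 against 123 and 91.2 (1.45). Sdf2l1, a partner of the DnaJ protein encoded by Dnajb11, was called in Kupffer cells, at 72.6 and 67.8 against 199 and 162 (1.36). It was not called in endothelial cells, at 69.5 and 39.0 against 264 and 97.3 (1.73), or in stellate cells, at 56.2 and 56.5 against 161 and 70.2 (1.08). Manf, a secreted factor kept in the ER by BiP, was called in Kupffer cells, at 235 and 97.7 against 455 and 314 (1.20), and not in stellate cells, at 275 and 158 against 707 and 331 (1.26). In endothelial cells its mice overlapped, at 287 and 71.5 against 701 and 245 (1.40). Dnajb11 rose in stellate cells, from 88.4 and 56.5 to 152 and 133 CPM (0.96), and in Kupffer cells (0.86). Dnajb9, which feeds misfolded proteins to ERAD, overlapped in all 3 gates, and Dnajc3, an inhibitor of the sensor kinase PERK, was called in none.

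Of the 9 translocon and signal peptidase genes, 2 rose in endothelial, 5 in stellate and 7 in Kupffer cells. Sec61a1, the channel itself, was at 47.8 and 42.5 CPM against 87.6 and 69.1 in endothelial cells (log2 fold change 0.80) and at 58.5 and 80.0 against 164 and 129 in stellate cells (1.10). Sec61b, a small subunit of the channel, was at 69.2 and 68.5 against 108 and 107 in endothelial cells (0.64). It was at 95.2 and 95.7 against 189 and 208 in stellate cells (1.05) and at 103 and 93.7 against 179 and 176 in Kupffer cells (0.85). The spread of Sec61b within a treatment was small beside these differences in all 3 gates.

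The 4 subunits of the translocon-associated protein complex, Ssr1 to Ssr4, differed between gates in which members were called. In Kupffer cells all 4 were called, with Ssr2 at 57.3 and 28.7 against 119 and 108 CPM (log2 fold change 1.38) and Ssr1 at 103 and 99.99 against 211 and 216 (1.07). In stellate cells Ssr4, at 64.3 and 73.7 against 148 and 153 (1.13), and Ssr2 (0.94) were called. In endothelial cells none was, the highest being Ssr2, at 78.8 and 54.9 against 120 and 99.8 (0.71), and Ssr4, at 68.4 and 64.7 against 112 and 93.5 (0.62, edgeR adjusted p = 0.0555). Of the signal peptidase subunits, Spcs2 rose in stellate and Kupffer cells (0.72 and 0.67). Spcs1 was called in none of the 3 gates, with log2 fold changes of 0.23, 0.39 and 0.18. Sec11c, a catalytic subunit, was called in none either, at 58.5 and 116 against 72.5 and 69.4 CPM in stellate cells (-0.27) and 87.5 and 93.1 against 125 and 120 in Kupffer cells (0.44).

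Of the ERAD genes 0 of 3, and of the tested regulators 0 of 3 to 5, were called in any of the 5 gates with edgeR. Over all genes, 3%, 5.55% and 7.43% rose in endothelial, stellate and Kupffer cells. With so few genes, 0 calls do not set these 2 groups apart. The median log2 fold change of the ERAD genes was 0.48, 0.29 and 0.25 in these gates, beside 0.51, 0.72 and 0.72 in the translocon group. limma-voom called 0 of them in endothelial, stellate and Kupffer cells, and DESeq2 called 1, Edem1 in endothelial cells. At an unadjusted p under 0.05, Edem1 in endothelial and Kupffer cells and Ddit3 and Atf4 in endothelial cells were higher. So were Atf4 in stellate cells and Atf4 and Atf6 in the monocyte gate, while Trib3 in endothelial cells was lower. The share of all genes under that threshold is not given here. Herpud1, an ERAD scaffold whose promoter holds the ERSE-II printed above, was at 516 and 329 CPM against 519 and 187 in endothelial, 474 and 231 against 295 and 108 in stellate, and 157 and 116 against 189 and 82.4 in Kupffer cells. Its mice overlapped in each gate. Sel1l, the adaptor of the ubiquitin ligase Hrd1, was at 183 and 136 against 263 and 184 in endothelial cells (log2 fold change 0.48), and at 102 and 72.4 against 114 and 94.0 in Kupffer cells (0.25). Edem1, which hands glycoproteins to degradation, was at 37.1 and 28.2 against 84.0 and 40.8 in endothelial cells (0.94, edgeR adjusted p = 0.144), at 51.6 and 72.2 against 101 and 67.8 in stellate cells (0.49) and at 97.4 and 75.3 against 128 and 104 in Kupffer cells (0.42).

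Xbp1, the transcription factor spliced by the sensor IRE1, was at 339 and 134 CPM against 391 and 252 in endothelial, 448 and 228 against 453 and 382 in stellate, and 265 and 178 against 249 and 181 in Kupffer cells. Its mice overlapped in all 3. These counts do not separate its spliced and unspliced forms. Atf4, which is controlled mainly at translation, was at 152 and 154 against 196 and 185 in endothelial, 115 and 151 against 189.7 and 173 in stellate, and 114 and 103 against 86.5 and 98.2 in Kupffer cells, with log2 fold changes of 0.32, 0.46 and -0.23. Ddit3 (CHOP), a proapoptotic target of ATF4, was at 11.8 and 5.70 against 17.4 and 13.4 in endothelial cells (0.81, edgeR adjusted p = 0.209). It was at 20.6 and 17.3 against 18.3 and 19.6 in stellate cells and at 14.4 and 11.5 against 16.6 and 11.9 in Kupffer cells. Trib3, a pseudokinase induced by CHOP, was at 5.33 and 3.24 against 2.09 and 2.01 in endothelial cells (-1.07, edgeR adjusted p = 0.124). Atf6 was close to 0 in fold change in Kupffer cells and overlapped in all 3 gates.

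Counted without a threshold, both CCl4 mice lay above both corn oil mice for 26 of 32 members in endothelial cells, where 28% of all genes tested did so. The figures were 22 of 31 members in stellate cells (28.7% of genes), 24 of 31 in Kupffer cells (30.3%) and 7 of 30 in pDC (18%). Both CCl4 mice lay below both corn oil mice for Trib3 in endothelial cells, Atf4 in Kupffer cells and Sel1l in pDC. Of all genes tested there, 3593 of 13337, 3018 of 9917 and 992 of 5890 did so, a larger share than 1 member per gate. Of the 31 members tested in the monocyte gate, 3 lay above (31.9% of genes) and 11 lay below (23.4% of genes).

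An upstream ERSE or ERSE-II was found both in members that were called and in members that were not. With a match were Hspa5, Hsp90b1, Calr, Canx, Pdia6, Dnajc3, Creld2 and Herpud1. The match of Dnajb11 lies past the start and was not counted here. Of the 8 with a match 3 were called in endothelial cells, 3 in stellate cells and 4 in Kupffer cells. Of the others with a promoter sequence 3 of 18, 4 of 17 and 10 of 17 were called. The median log2 fold change was 0.81 with and 0.53 without a match in endothelial cells, 0.49 and 0.46 in stellate cells, and 0.72 and 0.59 in Kupffer cells. These are descriptions without a test, and Hyou1, Manf, Sec61a1, Ssr2, Sec11c and Atf6 could not be placed.

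Libraries and depth moved with these counts. The share of all genes called under each change below is not given. Without CCl4 mouse 1, whose table the pipeline made on another day than the other 3 tables, 1 endothelial member was called (Hyou1), 2 stellate members (Sec61b and Ssr4) and 8 Kupffer members. In endothelial cells 5 were called without CCl4 mouse 2, 5 without corn oil mouse 2 and 13 without corn oil mouse 1. Cells of the CCl4 mice were deeper, at medians of 8050 and 7967 UMIs against 4424.5 and 4237 in the stellate gate and 13570.5 and 14622 against 8727.5 and 7502 in the Kupffer gate. With cells of 4000 to 10000 UMIs only, 9 endothelial, 5 stellate and 8 Kupffer members were called, all higher. With cells thinned to 1500 UMIs the numbers were 8, 6 and 12, all higher. Both alternatives left fewer counts, the depth range keeping 56 and 46 of the 228 and 225 Kupffer cells of the CCl4 mice. The part of fewer counts was not tested. Genes of cytosolic heat shock and dissociation stress (9 genes, all detected) went from 1.42% and 1.49% to 1.01% and 0.738% of endothelial UMIs and from 0.698% and 0.978% to 0.390% and 0.366% of Kupffer UMIs. In stellate cells they were at 0.666% and 0.577% in the corn oil and 0.882% and 0.692% in the CCl4 mice. The CCl4 mice thus lay below the corn oil mice in the first 2 gates and above them in the stellate gate. The median share of mitochondrial UMIs was 9.20% and 13.8% against 7.40% and 8.06% in Kupffer cells, and with cells of at most 15% mitochondrial UMIs 17 Kupffer members were called. The endothelial gate's own markers were at 2.49% and 2.58% of its UMIs against 1.60% and 1.62%, and plasma cell markers at 0.0175% and 0.0141% against 0.00168% and 0.00398%. Monocyte and macrophage markers were at 0.0189% and 0.0280% of Kupffer UMIs against 0.0437% and 0.0475%. The part of these marker lists in the result was not tested.

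In the stellate gate, plasma cell RNA and myofibroblast RNA differed between treatments. The 7 plasma cell markers made up 0.503% and 0.466% of UMIs in the corn oil mice and 0.0026% and 0.0031% in the CCl4 mice. In corn oil mouse 1 a single cell held 423 of 423 Jchain and 2679 of 2730 Igkc UMIs. In corn oil mouse 2, 2 cells held 225 and 103 of 329 Jchain and 1425 and 657 of 2102 Igkc UMIs. Those 3 cells had 2.22%, 2.24% and 8.65% of their UMIs from the 32 genes. Without such cells, 12 stellate members were called, all higher. The 4 smooth muscle and myofibroblast markers went from 0.0290% and 0.0182% to 0.197% and 0.228%, and the 8 stellate markers were at 3.71% and 4.07% against 2.15% and 1.84%. Their part in the result was not tested.

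In the monocyte gate 0 of 31 members were called with edgeR, where 2.41% of 10191 genes rose and 3.06% fell. At an unadjusted p under 0.05, 4 members passed, DESeq2 called 1 (Sec11c, lower) and limma-voom 0. The median log2 fold change of the members was -0.21 against 0.04 over all genes. P4hb was at 595 and 589 CPM in the corn oil mice and 437 and 306 in the CCl4 mice (-0.67, edgeR adjusted p = 0.160), and Sec11c at 241 and 338 against 170 and 145 (-0.86, adjusted p = 0.100). Dnajb9 was at 223 and 123 against 131 and 70.2 (-0.83), Ssr3 at 482 and 406 against 344 and 279.2 (-0.52), Herpud1 at 171 and 91.6 against 137 and 70.4 (-0.41) and Sel1l at 148 and 87.6 against 111 and 94.9 (-0.25). The CCl4 mice lay below the corn oil mice for P4hb, Sec11c and Ssr3 and overlapped them for Dnajb9, Herpud1 and Sel1l.

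Below 0 and not called were also Sec61a1 (-0.45), Ssr4 (-0.44), Ssr1 (-0.43), Pdia4 (-0.37), Calr (-0.36), Spcs1 (-0.29), Pdia3 (-0.21) and Canx (-0.20). The regulators Atf6, Atf4 and Xbp1 had positive values, none of them called. Atf6 was at 69.8 and 91.6 against 121 and 133 CPM (log2 fold change 0.70, edgeR adjusted p = 0.126), Atf4 at 83.1 and 107 against 133 and 132 (0.51) and Xbp1 at 271 and 199 against 407 and 269 (0.51). Hsp90b1 was at 1496 and 1664 against 1569 and 1192 (-0.19), Sec61b at 236 and 287 against 288 and 234 (0.01) and Ddit3 at 14.96 and 3.98 against 8.99 and 13.8. The gated corn oil cells were few and deep, at medians of 11013 and 8491 UMIs against 5614 and 5318, and carried Kupffer markers. With cells of 4000 to 10000 UMIs, which left 17 and 10 corn oil cells, the median of the members was 0.38, the opposite sign, and with thinned cells 0.03. No direction for this gate can be read from these values.

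In pDC 0 of 30 members were called, where 0.136% of 5890 genes rose and 8 genes fell. No member had an unadjusted p under 0.05, and DESeq2 and limma-voom called 0. The members' median log2 fold change was 0.07 against 0.00 over all genes. Hspa5 had a log2 fold change of 0.17 ± 0.16 and Hsp90b1, at 2680 and 1978 against 2789 and 2128 CPM, one of 0.07 ± 0.18. Sec61b was at 474 and 416 against 531 and 434, Xbp1 at 830.4 and 707 against 766 and 501 (-0.28), Atf4 at 167 and 181 against 143 and 178, and Herpud1 at 660.5 and 893 against 667 and 535 (-0.35). The highest values were those of Sdf2l1, at 65.8 and 16.4 against 81.2 and 74.2 (0.71), Ssr4, at 200.1 and 87.7 against 207 and 213 (0.45), Hyou1, at 121 and 93.2 against 171 and 121 (0.43), Dnajb11, at 90.4 and 71.2 against 127 and 94.4 (0.43), Ssr3, at 279.5 and 208 against 334 and 335 (0.42), and Atf6, at 159 and 159 against 210.1 and 202 (0.38). Sel1l was at 95.9 and 76.7 against 68.9 and 71.9 (-0.33). The sums held 192272 to 587785 UMIs per mouse, fewer than in any other gate in each of the 4 mice.

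The CCl4 effect itself was compared between gates by an interaction term in the fit over all sums, where Trib3 was not tested. Between stellate and endothelial cells 0 of 31 members differed (1.09% of 12346 genes did), with 4 members at an unadjusted p under 0.05 and 1 call each by DESeq2 and limma-voom (Pdia4, lower in stellate). Between stellate and Kupffer cells 0 differed (1.22% of genes), with 3 at an unadjusted p under 0.05 and 3 calls each by DESeq2 and limma-voom (Atf4, Pdia4 and Ssr1). Between Kupffer and endothelial cells Ssr1 differed (2.82% of genes), by 0.91 ± 0.18 on the log2 scale (edgeR adjusted p = 0.0170), its endothelial CPM being 170 and 167 against 184 and 182. That call was lost without corn oil mouse 2, CCl4 mouse 1 or CCl4 mouse 2, with thinned cells and with cells of 4000 to 10000 UMIs. Between pDC and endothelial cells 0 differed (0.211% of genes) with edgeR, with 10 at an unadjusted p under 0.05. DESeq2 called 6 of them lower in pDC (Creld2, Hspa5, Hyou1, Manf, Pdia4 and Pdia6) and limma-voom 0.

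The effect was lower in the monocyte gate for 13 of 31 members against endothelial cells (5.98% of genes were called lower) and for 11 against Kupffer cells (5.21%). Calr, Hyou1, P4hb, Pdia4, Pdia6, Sdf2l1, Sec11c, Sec61a1 and Ssr3 were in both sets. Pdia4 differed by -1.39 ± 0.24 from endothelial and by -1.43 ± 0.25 from Kupffer cells (edgeR adjusted p = 0.00162 and 0.00136). The effect on Atf4 and Atf6 was higher in the monocyte gate than in Kupffer cells (0.98 and 0.91), where 10.4% of genes were called higher. The median over all genes of these contrasts was 0.17 and 0.27 with TMM and 0.00 and 0.06 without it, and relative to that median Pdia4 stood at -1.56 and -1.71, and Atf4 and Atf6 at 0.71 and 0.64 against Kupffer cells. Of these 2 higher calls that of Atf4 held under all 3 scalings and that of Atf6 did not. All of the lower calls held without TMM and with DESeq2. The genes called over all genes were 51.5% and 66.7% higher with TMM, 33.3% and 48.1% without. With cells of 4000 to 10000 UMIs the lower calls came to 1 and 0, with thinned cells to 1 and 0, and without CCl4 mouse 2 to 3 and 0. Without CCl4 mouse 1 they came to 2 and 5. The part of depth, of the fewer counts left by these alternatives and of the Kupffer marker RNA in the corn oil cells was not tested.

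The genes were then compared between cell types within the corn oil mice, as the level in each gate against the mean of the other 4. These contrasts came from the fit over all sums, which held the CCl4 mice too. The calls therefore do not rest on the corn oil mice alone. Levels are given as log2 differences minus the median over all genes, because that median depended on the scaling. It was at 0.20 in endothelial cells, 0.12 in Kupffer cells and -0.27 in pDC with TMM and at 0.10, -0.09 and 0.06 without. The calls test the difference itself, before this median is taken off. In pDC 8 of 31 members were higher (14.1% of genes) and 6 lower (17.1%). The 8 were Sec11c (1.93), Sec61b (1.87), Herpud1 (1.68), Xbp1 (1.54), Ssr1 (0.96), Ssr2 (0.94), Spcs2 (0.87) and Atf6 (0.82), each also called without TMM and with DESeq2. Sec61b was at 391 and 318 CPM in pDC of the corn oil mice on the scale common to all gates, against 72.1 and 72.5 in endothelial cells, and Xbp1 at 685 and 539 against 354 and 142. The pDC mice lay above those of endothelial, stellate and Kupffer cells for both genes. Sel1l, Ssr3, Calr, Spcs1, Pdia3 and P4hb were lower, of which Sel1l, Ssr3 and Calr held under all 3 scalings. Over all genes called, 45.1% were higher in pDC with TMM and 63.3% without. Without corn oil mouse 1 the calls in pDC were 4 higher and 4 lower, and with cells of 4000 to 10000 UMIs, which left 9 cells of corn oil mouse 2, 7 and 1.

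In endothelial cells 9 of 31 members were lower (15.1% of genes), namely Edem1 (-1.75), Sec11c (-1.68), Sec61b (-1.47), Ssr4 (-0.95), Sec61a1 (-0.87), P4hb (-0.86), Xbp1 (-0.68), Spcs1 (-0.67) and Spcs2 (-0.60). Higher were 4 (29.5% of genes), namely Herpud1 (0.58), Sel1l (0.53), Dnajc3 (0.32) and Atf4 (0.23). All 13 held under the 3 scalings, while over all genes called 66.1% were higher with TMM and 48.9% with DESeq2. Edem1 was at 38.7 and 29.8 CPM in endothelial cells against 109 and 83.5 in Kupffer cells.

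Kupffer cells had 10 lower (10.4% of genes) and 0 higher members (22% of genes). The lower ones were Herpud1 (-1.25), Ssr2 (-1.15), Ssr1 (-0.98), Hyou1, Pdia4, Dnajc3, Sec11c, Sec61b, Sec61a1 and P4hb. Herpud1 was at 176 and 129 CPM in Kupffer cells against 538 and 349 in endothelial cells. DESeq2 called 17 members lower and edgeR without TMM 19, and 4 were called with cells of 4000 to 10000 UMIs, 5 with thinned cells and 6 without corn oil mouse 2. Over all genes called, 67.9% were higher with TMM and 51.4% without. Stellate cells had 4 higher (20.9% of genes), namely Ddit3 (1.03), Pdia4 (0.61), Hsp90b1 (0.50) and Ssr3 (0.37), and 3 lower (13.6%), namely Sec11c (-0.98), Ssr4 (-0.89) and Sec61b (-0.88). DESeq2 called 11 higher and 3 lower there, cells of 4000 to 10000 UMIs gave 12 higher and 0 lower, and without CCl4 mouse 2 1 was higher and 3 lower. The 3 cells with Jchain were part of these stellate sums, and without such cells 2 members were higher and 5 lower.

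In the monocyte gate 11 members were higher (14.9% of genes) and 2 lower (7.83%), the lower being Herpud1 (-1.36) and Atf4 (-0.55). The higher ones were led by Sdf2l1 (1.57), Edem1 (1.37), Sec11c (1.30), P4hb (1.20), Ssr4 (1.10) and Sec61b (1.01). These are the few deep gated corn oil cells described above. With thinned cells 2 were higher and 2 lower, and with cells of 4000 to 10000 UMIs 0 were higher and 4 lower.

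**Figure D4:**
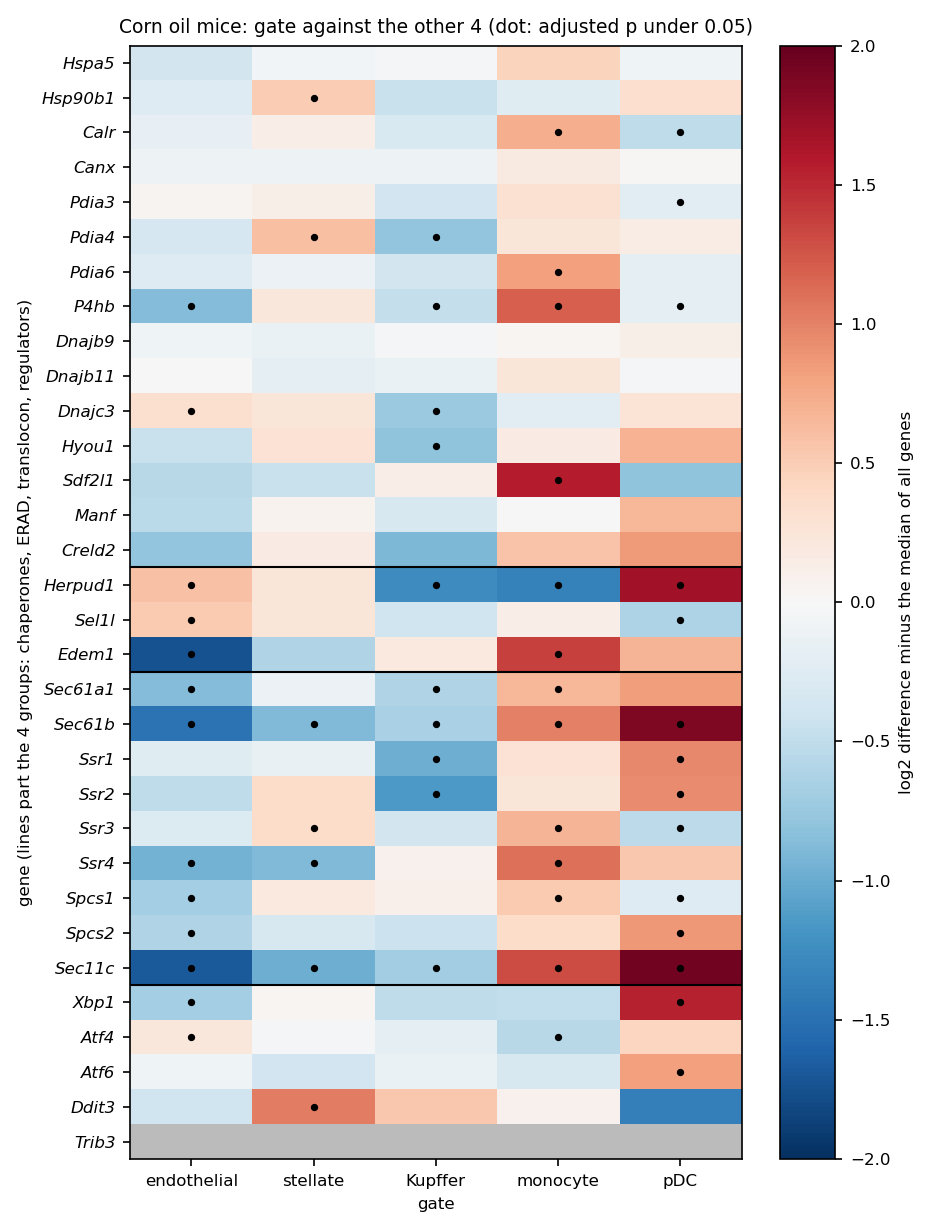
Log2 level of the 32 genes (rows) in each gate (columns) against the mean of the other 4 gates in the 2 corn oil mice, minus the median of all genes (color, capped at 2), with a dot where the adjusted p was under 0.05 and grey for Trib3, which was not tested. Sec61b and Sec11c are low in the endothelial, stellate and Kupffer columns and high in the monocyte and pDC columns, and Xbp1 is called higher in pDC only, at 1.54.

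Some members lay higher in mouse 1 than in mouse 2 in all 5 gates of both treatments, and they are named here after their values were seen. The share of all genes that did so was not computed, and the 5 gates of a mouse come from the same library. Manf was higher in corn oil mouse 1 than in corn oil mouse 2 in all 5 gates, with a median log2 ratio of 1.26 (CPM + 1), and higher in CCl4 mouse 1 than in CCl4 mouse 2 in all 5 gates, with a median of 1.02. Creld2 (0.77 and 0.72), Hspa5 (0.64 and 0.47), Dnajb9 (0.61 and 0.91), Xbp1 (0.58 and 0.60) and Dnajb11 (0.36 and 0.43) did so as well. Herpud1 did so in 4 of 5 gates in the corn oil mice and in 5 of 5 in the CCl4 mice, with medians of 0.65 and 1.19. Hsp90b1, Canx, Pdia3 and Sec61b, by contrast, had medians between -0.21 and 0.13. Corn oil mouse 1 was the higher for 26 of 32 members in endothelial cells (50.9% of all genes), 15 of 31 in stellate (49.9%), 26 of 31 in Kupffer cells (49.6%), 19 of 31 in the monocyte gate (54.5%) and 27 of 30 in pDC (52.4%). CCl4 mouse 1 was the higher for 30 of 32 in endothelial (49.7%), 24 of 31 in stellate (51.6%), 23 of 31 in Kupffer cells (52.0%), 28 of 31 in the monocyte gate (50.2%) and 24 of 30 in pDC (50.03%). The table of CCl4 mouse 1 was made on another day than the other 3, so that day cannot be told apart from this mouse. The median share of mitochondrial UMIs in endothelial cells was 7.41% and 8.91% in the corn oil mice and 7.30% and 8.18% in the CCl4 mice, and in stellate cells 9.44% and 13.5% against 7.89% and 11.5%. Its part was not tested.

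**Figure D5:**
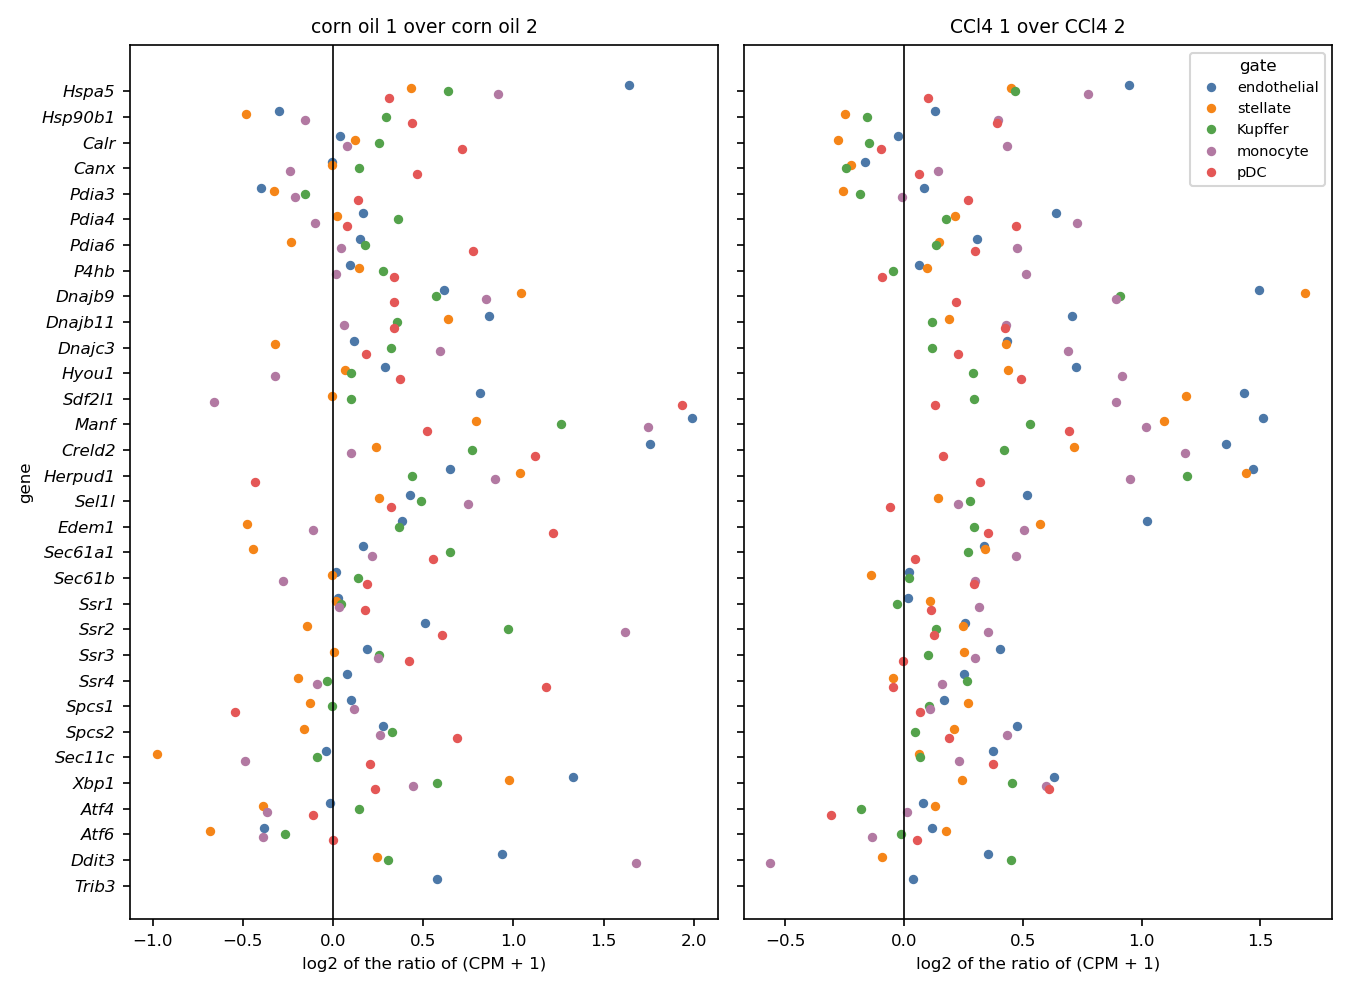
Log2 ratio of (CPM + 1) between the 2 corn oil mice (left, mouse 1 over mouse 2) and the 2 CCl4 mice (right, mouse 1 over mouse 2) for the 32 genes (rows), with 1 point per gate (color). Manf, Creld2, Dnajb9, Hspa5 and Xbp1 lie right of 0 in every gate of both panels, while Hsp90b1, Canx and Pdia3 lie on both sides.

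Other genes of the pathway were read from 5 lists. Over all genes tested, 3% rose and 2.76% fell in endothelial, 5.55% and 5.05% in stellate, and 7.43% and 7.66% in Kupffer cells. The shares were 2.41% and 3.06% in the monocyte gate and 0.136% and 0.136% in pDC. The corn oil side of the monocyte gate was the few deep gated cells described above, so no direction is read from its calls. Of 33 other folding and redox enzymes, 7 rose and 1 fell in stellate cells, 2 rose and 1 fell in endothelial cells, and 2 of 29 rose in Kupffer cells, a share near that of all genes. Plod2, a collagen lysyl hydroxylase, was at 74.6 and 61.2 CPM against 199.8 and 151 in stellate cells (log2 fold change 1.37, edgeR adjusted p = 0.0057). Fkbp11, a prolyl isomerase, was called there on 5 UMIs in the corn oil mice against 101 in the CCl4 mice. Mogs, the glucosidase that starts glycan trimming, rose in stellate (1.38), Kupffer (1.16) and endothelial cells (1.04). Pdia5 rose in Kupffer cells (1.31) and Fkbp2 in endothelial cells (0.77). Fkbp7 fell in stellate cells from 110 and 157 to 64.5 and 67.0 and in endothelial cells by 0.73. Of 31 tested in the monocyte gate 2 fell, Sil1 (-1.89) and Dnajc10 (-1.54).

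Of 27 other translocon, targeting and glycosylation genes, 8 rose in Kupffer cells and none fell, and the called ones with the highest values were Rpn1 (0.97), a subunit of the oligosaccharyltransferase, Spcs3 (0.87) and Sec61g (0.85). In stellate cells 3 rose, Spcs3 (1.10), Sec61g (0.98) and Ostc (0.95), and Sec62 fell (-0.77). In endothelial cells Magt1 rose (0.61), and in the monocyte gate Ddost fell (-1.05). Of the 21 to 23 other ERAD genes tested per gate, Vcp, the ATPase that pulls proteins out of the ER membrane, rose in Kupffer cells from 248 and 225 to 359 and 343 CPM (0.57), and in the 4 other gates none was called. Of the ER to Golgi transport genes, 5 of 28 rose in Kupffer cells, led by Lman1 (0.92), a cargo receptor, Tmed2 (0.87) and Sec23b, and Copz2 fell (-1.52). In stellate cells 4 of 29 rose, led by Kdelr3 (1.26), Sec24d (1.11) and Tmed9 (0.90). None of 29 was called in endothelial cells, and in the monocyte gate Tmed3 (-1.67) and Lman1 (-1.12) fell.

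Among 24 other regulators of the unfolded protein response and ATF4 targets, calls went both ways in Kupffer cells, with 4 of 18 higher and 4 lower. Psat1 (1.83) and Shmt2 (1.30), enzymes of serine and glycine synthesis, and Creb3l1 (1.43) rose. Ddit4, a stress-induced inhibitor of mTORC1, fell from 287 and 221 to 49.5 and 96.1 CPM (-1.80), Ern1, which encodes IRE1, from 33.8 and 58.6 to 17.5 and 20.1 (-1.28), and Sesn2 by 1.01. Creb3l1, an ER-membrane transcription factor linked to collagen secretion, also rose in stellate cells, from 56.2 and 42.4 to 224 and 245 (2.23, edgeR adjusted p = 0.000604), and in endothelial cells (0.83). Ddit4 fell in stellate cells too (-1.87). In the monocyte gate Slc7a11 (2.06), Atf3 and Slc3a2 were called higher, and Asns (-3.10) and Psat1 (-1.68) lower, against the few gated corn oil cells. Slc7a11 was called on 4 and 2 UMIs in the corn oil mice and Asns on 12 and 2. No gene of the 5 lists was called in pDC. The median log2 fold change of the lists lay between 0.05 and 0.35 in endothelial, 0.08 and 0.49 in stellate and -0.16 and 0.47 in Kupffer cells.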

How the data were processed

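Single-cell libraries of 4 mice were used as the authors deposited them: molecule counts (UMIs) per cell and gene, whole numbers that had not been normalized. Per the file headers, version 1.9.1 of BD's WTA Rhapsody pipeline made these counts with GRCm38 and GENCODE vM19. No source used here gives the aligner or whether strand was used in counting. The headers date the CCl4 1 table to another day than the other 3, while the labels put all samples in 1 batch.

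Cells were kept from 200 detected genes upward and up to 25% mitochondrial UMIs, and were placed in gates by UMIs of marker genes. Endothelial cells had 5 or more of Kdr, Ptprb and Egfl7 together, stellate cells 5 or more of Reln, Colec11 and Lrat, Kupffer cells 5 or more of Clec4f, and plasmacytoid dendritic cells (pDC) 5 or more of Siglech. Monocytes had 3 or more of Chil3, F13a1 and Vcan and at most 2 of Clec4f. The 2453 cells in 2 or more gates (9.49% of those kept) were left out. No doublet caller was run. Between 48 and 74 cell barcodes were shared by each pair of libraries.

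Counts were summed per gate and mouse. Each gate was tested with edgeR 4.0.16 (quasi-likelihood, TMM, filterByExpr) in R 4.3.3, with Benjamini-Hochberg adjustment over all genes of the gate. Another fit over all 20 sums, with mouse as a block, gave the contrasts of gates. A gene was called at an adjusted p under 0.05. DESeq2 1.42.0, limma-voom 3.58.1 and other filters, scalings, gates and depths were alternatives. The method was tested on simulated counts. The members, gene lists and tests were chosen with earlier results of these data known. By rule, values are given per gate for up to 8 called members with the highest absolute fold change, up to 2 not called members of each group, 6 genes in every gate (Hspa5, Hsp90b1, Xbp1, Atf4, Ddit3, Sec61b), and up to 3 called genes of each pathway list. Of the pathway genes, 5 symbols matched no column of the tables. Work in Python 3.11.15 used numpy 2.4.6, pandas 2.3.3 and matplotlib 3.10.9.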

Additional observations from a re-analysis of the deposited data

Results flagged for a closer look

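The CCl4 effect on 17 genes differed between gates by the interaction term of edgeR (quasi-likelihood, adjusted p under 0.05 over all genes), and these differences are on the log2 scale. In the monocyte gate the effect was lower than in endothelial cells for the chaperones Creld2 (-2.03), Sdf2l1 (-1.87), Hspa5 (-1.45), Manf (-1.39), Pdia4 (-1.39), Dnajb9 (-1.10), Pdia6 (-1.08), Hyou1 (-1.06), P4hb (-1.05) and Calr (-0.99). It was lower for the translocon and signal peptidase genes Sec11c (-1.15), Sec61a1 (-1.03) and Ssr3 (-0.71). Against Kupffer cells the effect in the monocyte gate was lower for Sdf2l1 (-1.59), Pdia4 (-1.43), P4hb (-1.15), Calr (-1.05), Pdia6 (-1.05), Hyou1 (-0.91), Ssr1 (-1.27), Sec61a1 (-1.12), Sec11c (-1.05), Ssr4 (-0.91) and Ssr3 (-0.79), and higher for Atf4 (0.98) and Atf6 (0.91). Ssr1 had a higher effect in Kupffer than in endothelial cells (0.91). In the monocyte gate the lower calls were 13 of 31 members against endothelial (5.98% of genes) and 11 against Kupffer cells (5.21%). The higher calls there were 2 of 31 (10.4% of genes), and Ssr1 was 1 of 31 (2.82% in either direction). These higher calls do not set the members apart from all genes. With thinned cells and with cells of a matched depth range, nearly all lower calls and that of Ssr1 were lost. Both alternatives also left fewer counts. The depth range kept 17 and 10 corn oil cells of the monocyte gate. It kept 56 and 46 of the 228 and 225 Kupffer cells of the CCl4 mice. The part of fewer counts in the lost calls was not tested. The corn oil part of the monocyte gate was 43 and 23 cells, deeper than the CCl4 cells and with Kupffer markers, and its part in these differences was not tested.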

How the results depend on the processing

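Each count of called members was recomputed under 15 alternatives, or 14 where no replicate block was fitted. For CCl4 against corn oil, no member called within a gate reversed its direction. For levels and for differences between gates, reversals of single members were not checked. The median log2 fold change of the members in the monocyte gate, -0.21, changed sign with thinned cells (0.03) and with cells of 4000 to 10000 UMIs (0.38). The 2 alternatives on cells of 4000 to 10000 UMIs and on Jchain were chosen after seeing the data. For CCl4 against corn oil, DESeq2 called 13 members in endothelial cells, where 5.83% of all genes rose and 5.21% fell. It called 1 in the monocyte gate, where 3.45% of all genes rose and 5.47% fell. The other counts of this section stand without the share of all genes called under the same alternative. A change in them is therefore not read as particular to the members. Without a filter on low counts the calls were 25 in endothelial cells, 16 in stellate cells and 2 in the monocyte gate. Cells thinned to 1500 UMIs gave 6 in stellate cells, and cells of 4000 to 10000 UMIs gave 5 in stellate and 8 in Kupffer cells. Leaving out 1 mouse at a time gave 1 to 13 calls in endothelial, 2 to 13 in stellate and 8 to 20 in Kupffer cells and 0 to 1 in the monocyte gate. No member was called in pDC under any alternative.

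With the replicate number as a block, 20 members were called in endothelial cells, 14 in stellate (13 higher and Herpud1 lower) and 21 in Kupffer cells. In the other gates 0 were called. The share of all genes called with this block is not given here. The numbers name different mice and were not taken to pair them. Over all genes tested, the deviations of same-numbered mice correlated at 0.14, -0.02, 0.10, 0.18 and 0.12 in the endothelial, stellate, Kupffer, monocyte and pDC gates. These values rest on 2 pairs and do not address the members alone, some of which lay higher in mouse 1 under both treatments.

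For levels in the corn oil mice, DESeq2 called 14 members in stellate and 17 in Kupffer cells, and no TMM factors gave 19 in Kupffer cells. Thinned cells gave 5 in Kupffer cells and 4 in the monocyte gate. Cells of 4000 to 10000 UMIs gave 12 in stellate cells, 4 in Kupffer cells, 4 in the monocyte gate and 8 in pDC. Leaving out 1 mouse gave 4 to 8 in stellate cells, 6 to 10 in Kupffer cells and 8 to 15 in pDC.

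For differences of the CCl4 effect, DESeq2 called 1 member for stellate against endothelial cells, 2 for Kupffer and 23 for the monocyte gate against endothelial cells, 6 for pDC against endothelial cells, 3 for stellate and 22 for the monocyte gate against Kupffer cells. limma-voom called 1 for stellate against endothelial cells, 2 for Kupffer against endothelial cells, 3 for stellate against Kupffer cells and 20 for the monocyte gate against Kupffer cells. For pDC against endothelial cells no TMM factors gave 1, no filter on low counts 5, thinned cells 3 and cells of 4000 to 10000 UMIs 1. Thinned cells gave 0 for Kupffer against endothelial cells, 1 for the monocyte gate against endothelial cells and 0 against Kupffer cells, and so did cells of 4000 to 10000 UMIs (0, 1 and 0). Leaving out 1 mouse gave 0 to 2 for Kupffer, 2 to 11 for the monocyte gate and 0 to 1 for pDC against endothelial cells, and 0 to 14 for the monocyte gate against Kupffer cells. The cause was not tested. With 2 mice per treatment, a lone mouse left by these fits is assumed to vary like the other group.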

Other observations

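Cells outside the 5 gates, which entered no comparison, held the 32 genes at 0.773% and 0.660% of their UMIs in the corn oil mice (400 and 548 cells) and at 1.34% and 1.04% in the CCl4 mice (783 and 731 cells). Cells in 2 or more gates, left out as likely mixtures, held them at 0.901% and 0.694% against 1.46% and 1.19%. In both sets the CCl4 mice lay above the corn oil mice for the chaperones, at 0.536% and 0.453% against 1.03% and 0.781% in cells of no gate. The ERAD genes overlapped there, at 0.0570% and 0.0461% against 0.0698% and 0.0414%. These cells are of several types, so the shares are values without a test.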
